A study of Mus musculus with 48 samples.

Results

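The pluripotency-associated genes *Lin28a*, *Lin28b*, *Trim71*, *Sall4*, and *Utf1* were followed through reprogramming of mouse embryonic fibroblasts (MEFs). They were chosen by name, as 5 of the 24264 transcripts in the count table. All 5 passed the filter on low counts, for which reads in any 1 condition suffice. The set is known as a group of late activators. The sorted populations here are described for a single day and form no time course, so the order of activation could not be examined.

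Reprogramming was induced with a polycistronic cassette, MKOS or OKMS, whose letters give the order of *Myc*, *Klf4*, *Oct4* (*Pou5f1*), and *Sox2*. OKMS carries a short form of *Klf4*. Both cassettes are doxycycline-inducible and were targeted to an intron of *Sp3* together with a CAG-driven transactivator, in TNG embryonic stem cells (ESCs), which carry GFP in 1 *Nanog* allele. MEFs with a 129 background were taken from chimeric embryos made with these ESCs, and for reprogramming they were diluted with WT MEFs and given doxycycline and vitamin C. The sorted populations are described for day 10, whereas the culture description of the samples allows 10 or 15 days. They were CD44- ICAM1- Nanog-GFP- (2NG-), CD44- ICAM1+ Nanog-GFP- (3NG-), and CD44- ICAM1+ Nanog-GFP+ (3NG+) cells. Of both cassettes, E-CAD+ cells of all 3 gates were sequenced. OKMS cultures also gave E-CAD- cells of the 2NG- and 3NG- gates. These 8 sorted populations had 3 libraries each. WT, MKOS, and OKMS MEFs, MKOS and OKMS iPSCs without doxycycline (-dox) or in 2i medium, D6 iPSCs (the line D6s4B5, with a single *piggyBac* MKOS integration at *Sp3*), TNG, TNG MKOS, and TNG OKMS ESCs, and E14 ESCs had 2 libraries each, which makes 48 libraries from 20 conditions. Each line may be a single clone, and nothing states whether libraries of 1 condition came from separate cultures, so the p-values measure only the spread between these libraries, which may be technical.

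LIN28A and LIN28B are RNA-binding proteins that block maturation of the let-7 microRNAs. LIN28 recruits terminal uridylyltransferases to let-7 precursors, which are then degraded, while mature let-7 represses growth-promoting mRNAs. TRIM71 (LIN-41) is a TRIM-NHL protein that represses mRNAs and is itself encoded by a let-7 target. SALL4 is a zinc-finger transcription factor of ESCs that recruits the NuRD histone deacetylase complex, and UTF1 is a chromatin-associated protein of undifferentiated ESCs.

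In RefSeq for mouse build GRCm38, which the positions in the count table match, *Lin28a* lies at chr4:134003330-134019196 and *Lin28b* at chr10:45376617-45486314. *Trim71* lies at chr9:114511268-114564369 and *Sall4* at chr2:168748332-168767201, all of these on the minus strand. *Utf1* lies at chr7:139943856-139945112 on the plus strand. For *Lin28b* and *Utf1*, 100% of the reads had a unique position, for *Trim71* 99.9%, for *Sall4* 96.4%, and for *Lin28a* 92.0%.

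The letters that LIN28 and let-7 use are shown because the genes below are grouped by them. Of the 10 mature let-7 entries in RefSeq (GRCm38.p6), 9 share the seed GAGGUAG at bases 2 to 8. In the 3 mature sequences the capitals mark this seed, and in the precursor of let-7g, at chr9:106178840-106178927 on the plus strand, they mark the GGAG that LIN28 is known to bind:
mmu-let-7a-5p: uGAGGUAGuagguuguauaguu
mmu-let-7d-5p: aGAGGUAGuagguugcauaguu
mmu-let-7g-5p: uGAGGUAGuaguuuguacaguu
let-7g precursor: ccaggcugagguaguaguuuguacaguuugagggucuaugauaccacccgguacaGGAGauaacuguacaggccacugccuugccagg
Any GGAG was present in 9 of 11 let-7 precursors (81.8%) and in 447 of all 1005 microRNA precursors in the table (44.5%). let-7 itself was not measured, since the libraries read polyadenylated RNA.

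Promoters, from 250 bases before to 50 bases after the annotated start, were found in the RefSeq table for *Lin28a*, *Lin28b*, *Trim71*, and *Utf1*. These windows were searched on both strands for letters that factors of the cassettes are known to prefer. They were the octamer ATTTGCAT for OCT4, CATTGT for SOX2, CACGTG for MYC, and GGGNGTGG for KLF4, none of which contains another. The 2 matches are printed with their flanks because they fall in the 2 paralogs whose levels are contrasted below, with the match in capitals:
*Lin28a*, chr4:134018895-134018924, minus strand: ggggggttgggtCATTGTcttttagaattt
*Lin28b*, chr10:45470233-45470262, minus strand: aattgacagagtCACGTGtgctcaggggcc
CATTGT starts 96 bases before the *Lin28a* start, and 12.6% of all 32841 promoters in the table hold it. CACGTG starts 49 bases before the *Lin28b* start, and 7.15% of all promoters hold it. Both printed stretches lie inside the gene intervals given above, which end at chr4:134019196 and chr10:45486314. The annotated starts used for *Lin28a* and *Lin28b* are therefore not the outer ends of those intervals. ATTTGCAT and GGGNGTGG, in 1.74% and 17.6% of all promoters, were not among the letters of the 4 windows. A match is a description of the sequence, and binding was not measured.

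Libraries held 1429717 to 14174725 reads on transcripts, with a median of 6243254.5. Levels are given as CPM, that is reads scaled to a fixed total of reads on transcripts. They carry no correction for length, since STRT takes its reads from transcript 5′ ends. A count of 3 reads corresponded to 0.212 to 2.10 CPM, a floor for counting error only. The libraries that stood apart from the rest of their populations were replicate 3 of the OKMS E-CAD+ 2NG-, E-CAD+ 3NG-, E-CAD- 2NG-, and E-CAD- 3NG- cells. They belong to a larger set of sorted libraries that do not enter the published averages, which also holds replicate 3 of MKOS E-CAD+ 2NG- and 3NG- and replicate 2 of OKMS 3NG+, 7 in all. The sum of 6 primitive endoderm markers was 26.1 to 65.4 CPM in the 4 libraries, and 0 to 19.1 CPM in the other 8 OKMS Nanog-GFP- libraries. The sum of 5 trophoblast markers was 26.1 to 97.5 CPM against 0.697 to 41.3 CPM, and *Eomes* alone 19.6 to 84.0 CPM against at most 13.0 CPM. *Elf5* (0 to 5.89 CPM against 0 to 26.1 CPM) and *Krt7* (0 to 13.8 CPM against 0.349 to 15.5 CPM) were not higher. *Cdx2* and *Gata3* reached 3.27 and 4.37 CPM against at most 0.341 and 2.39 CPM. Of the endoderm list, only *Sox7* did not reach higher, at most 0.272 CPM against 1.71 CPM. In MKOS Nanog-GFP- libraries the endoderm sum was 3.57 to 8.57 CPM with 2 of its 6 genes, *Sox17* and *Foxa2*, at 0 in all. MEFs, where the same 2 were at 0, had 72.9 to 216 CPM. The part of other cell types in the members' values was not tested. The members' values in these populations, and the tests that turn on them, are given with and without the 4 libraries.

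All members were near or at 0 in MEFs and well expressed in ESCs. No read of *Lin28a* or *Utf1* was found in any of the 6 MEF libraries. *Sall4* reached at most 0.229 CPM in MEFs, *Lin28b* 1.23 CPM, and *Trim71* 2.18 CPM, the latter in OKMS MEFs, whose 2 libraries (2.04 and 2.18 CPM) lay above the 4 other MEF libraries (0.151 to 0.548 CPM). The MEF libraries carried fibroblast markers at a summed 3014 to 5277 CPM over 8 genes, against 6.21 to 11.4 CPM in ESCs, and *Nanog* was at 0 in all of them.

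In the 8 ESC libraries, *Lin28a* ranged from 67.0 to 217.8 CPM with a median of 116.8 CPM. *Sall4* was between 82.0 and 292.2 CPM, and *Utf1* between 116.5 and 200.1 CPM. *Trim71* was lower, at 30.1 to 57.7 CPM, and *Lin28b* lowest, at 4.69 to 16.8 CPM. No member's MEF and ESC ranges overlapped, and the share of all genes without such an overlap was not counted. From MEFs to ESCs all 5 members rose, where 60.1% of all 15630 genes tested were called and 29.6% rose (edgeR's quasi-likelihood test, adjusted p at most 0.05). *Lin28a* was at least 1954-fold and *Utf1* at least 2302-fold higher in ESCs, with 3 reads over all MEF libraries as the floor. The ratio was 1524 for *Sall4*, with a 95% counting interval of 595 to 5595, 49.2 for *Trim71* (36.2 to 68.7), and 24.0 for *Lin28b* (15.6 to 39.0).

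**Figure D1:**
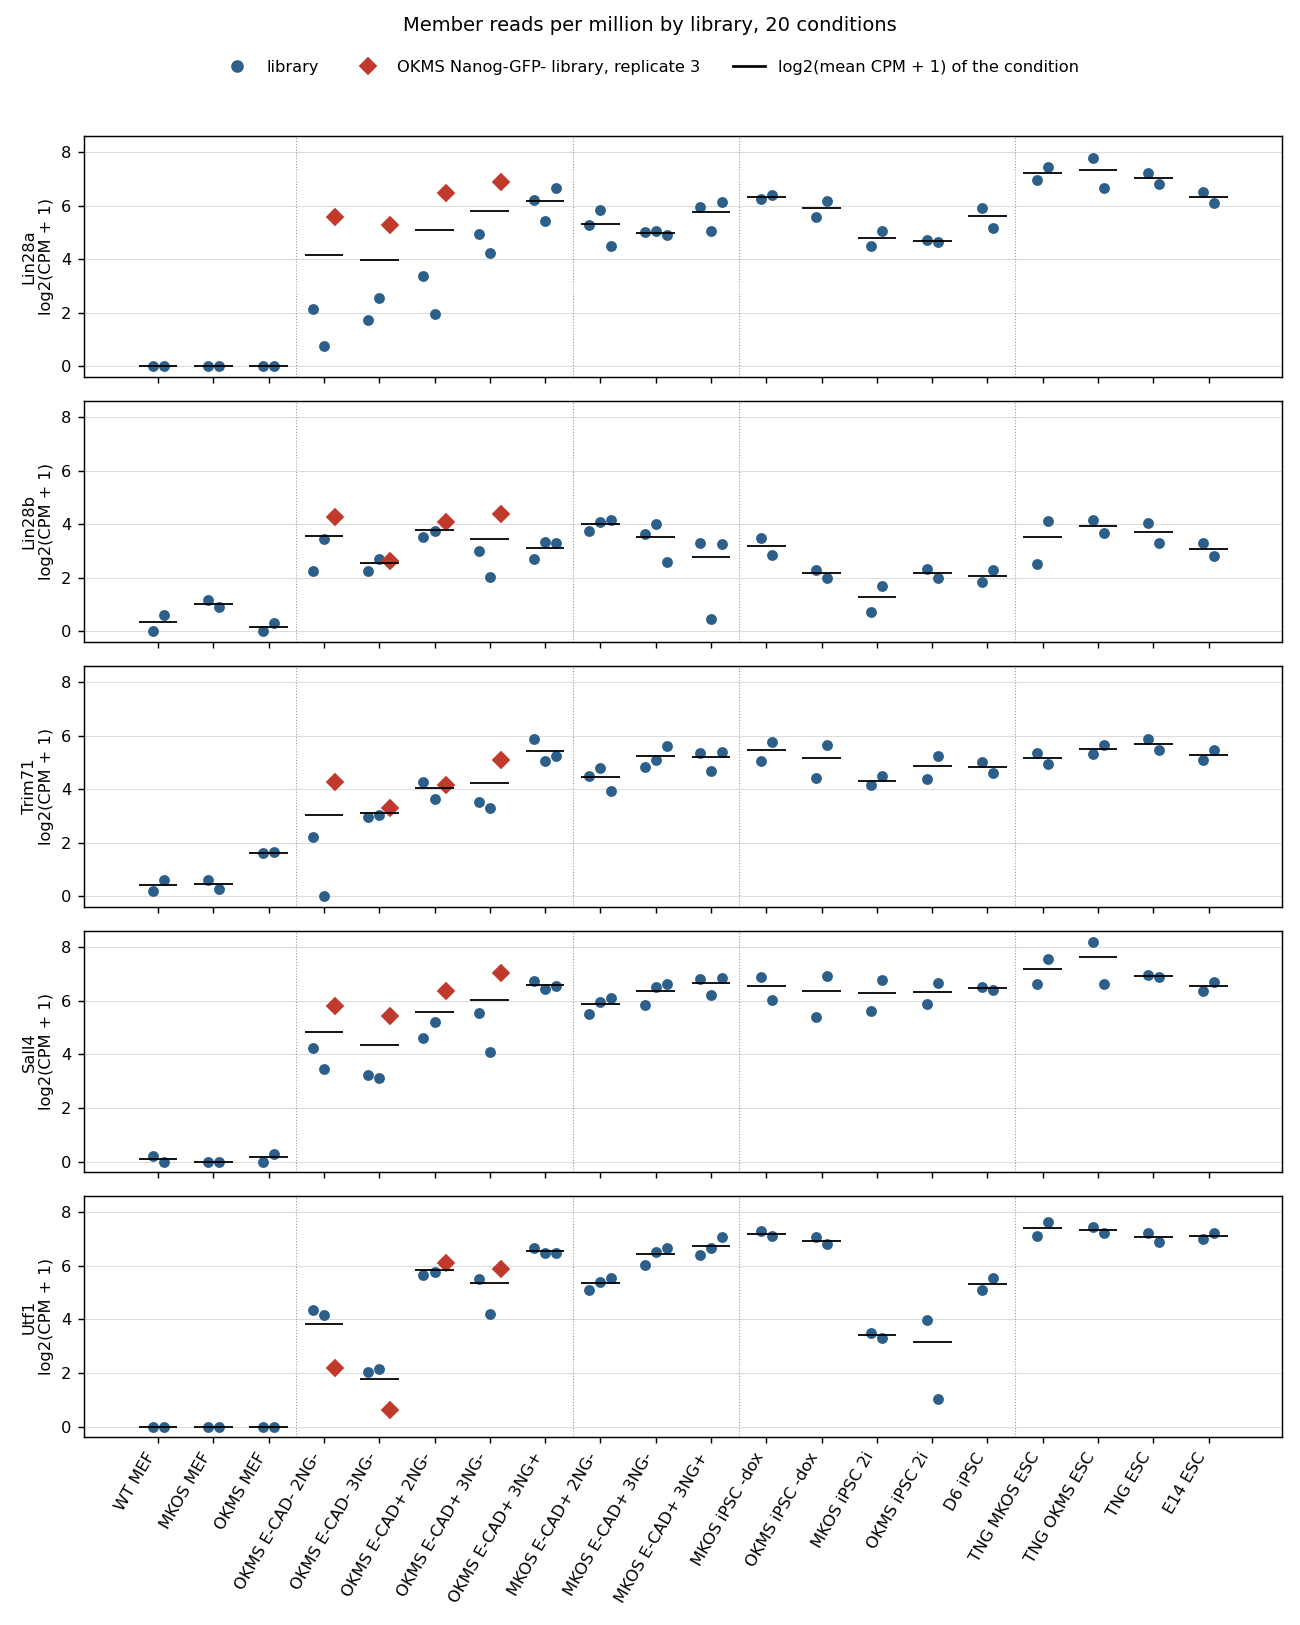
Level of each member by library as log2(CPM + 1), over the 20 conditions. Points are libraries, red diamonds are replicate 3 of the 4 OKMS Nanog-GFP- populations, and lines are log2(mean CPM + 1) of the condition. *Lin28a* and *Utf1* were at 0 in all 6 MEF libraries, the red diamonds stand above the other libraries of their population for *Lin28a* and *Sall4*, and *Utf1* is low in the iPSCs in 2i.

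Sorted Nanog-GFP- cells expressed the members. In MKOS E-CAD+ 2NG- cells *Lin28a* was at 37.9, 56.1, and 21.4 CPM, *Lin28b* at 12.4, 15.8, and 16.8 CPM, and *Trim71* at 21.8, 26.7, and 14.4 CPM. *Sall4* was at 44.2, 60.2, and 67.5 CPM and *Utf1* at 33.7, 41.2, and 45.5 CPM. Every one of these values lay above all MEF libraries, and against MKOS MEFs all 5 members were called higher (27.0% of all genes called, 15.0% higher). *Sall4* was at least 266-fold, *Utf1* at least 188-fold, and *Lin28a* at least 181-fold higher, while the ratio was 49.8 (22.7 to 136) for *Trim71* and 13.2 (7.99 to 23.3) for *Lin28b*. In these bulk samples, fewer expressing cells and less RNA per cell cannot be told apart.

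In OKMS E-CAD+ 2NG- cells all 5 members were also called higher than in OKMS MEFs (29.2% of all genes called, 15.7% higher). *Lin28a* was at 9.37, 2.90, and 86.9 CPM, so its replicate 3 was 14.2 times the mean of the others. *Lin28b*, in contrast, was at 10.4, 12.2, and 15.9 CPM. *Trim71* was at 18.4, 11.3, and 17.0 CPM, and *Utf1* at 48.9, 52.9, and 67.6 CPM, which are close between the libraries. *Sall4* was at 23.5, 35.8, and 81.7 CPM. Without the 4 libraries all 5 members stayed called.

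Members were also read in OKMS E-CAD- 2NG- cells. *Utf1* was at 19.2, 17.2, and 3.59 CPM there, *Lin28b* at 3.79, 9.96, and 18.3 CPM, and *Sall4* at 17.6, 9.96, and 55.4 CPM. *Lin28a* was at 3.42, 0.687, and 47.0 CPM. Against OKMS MEFs 4 members were called higher (21.8% of all genes called, 11.7% higher), and *Trim71*, at 3.60, 0, and 18.1 CPM, had a log2 fold change of 1.80 with an adjusted p of 0.0645. DESeq2 called *Trim71* as well (1.68, adjusted p = 0.0498), as did edgeR without the filter on low counts (adjusted p = 0.00304). The value of *Trim71* rested on replicate 3, since without the 4 libraries its log2 fold change was 0.03, and the mean of replicates 1 and 2 was 1.80 CPM against 2.11 CPM in OKMS MEFs. *Lin28a* lost its call without replicate 3 of this population alone (adjusted p = 0.0726) and without OKMS MEF replicate 2 (adjusted p = 0.0527). *Trim71* was called without replicate 1 (2.10) and without replicate 2 (2.30) of the sorted cells.

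The order of the condition means (± SD, n = 2 for lines and MEFs and n = 3 for sorted cells) was compared from each condition to the next lower one, and a gap here means that the ranges of these neighbors did not overlap. Conditions farther apart in the order may still overlap across a gap. For *Lin28a*, TNG OKMS ESCs (159.0 ± 83.1 CPM), TNG MKOS ESCs (147.1 ± 34.0), and TNG ESCs (129.0 ± 26.0) stood first. Their ranges overlapped each other and had a gap to MKOS iPSCs without doxycycline (78.8 ± 5.92), but OKMS E-CAD+ 3NG- cells, lower in the order, reached 116.5 CPM in 1 library. E14 ESCs (78.6 ± 16.4), OKMS 3NG+ (71.3 ± 29.0), OKMS iPSCs without doxycycline (59.2 ± 17.5), OKMS E-CAD+ 3NG- (54.6 ± 54.0), MKOS 3NG+ (53.7 ± 19.5), and D6 (47.2 ± 17.7) followed. MKOS 2NG- (38.5 ± 17.3), OKMS E-CAD+ 2NG- (33.1 ± 46.7), MKOS 3NG- (30.7 ± 1.91), MKOS and OKMS iPSCs in 2i (26.8 ± 7.58 and 24.7 ± 0.671), and OKMS E-CAD- 2NG- and 3NG- cells (17.0 ± 26.0 and 14.8 ± 19.5) were lower. Each of these neighbors overlapped with the next, down to the gap before MEFs.

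*Sall4* had the same 3 ESC lines on top, TNG OKMS (195.5 ± 137 CPM), TNG MKOS (142.7 ± 62.0), and TNG (119.9 ± 4.96). TNG ESCs had a gap to the next condition, whereas the lower library of TNG OKMS and of TNG MKOS ESCs (both 98.9) was within the range of MKOS 3NG+ cells (72.9 to 114.1). The conditions from MKOS 3NG+ (99.9 ± 23.4) through OKMS 3NG+ (94.6 ± 9.76), E14 (92.8 ± 15.2), MKOS iPSCs without doxycycline (91.8 ± 38.0), D6 (87.4 ± 4.98), MKOS 3NG- (82.0 ± 22.6), OKMS iPSCs without doxycycline (81.3 ± 56.6), and OKMS and MKOS iPSCs in 2i (79.6 ± 31.1 and 77.9 ± 42.0) overlapped from neighbor to neighbor. So did OKMS E-CAD+ 3NG- (64.3 ± 59.6), MKOS 2NG- (57.3 ± 11.9), OKMS E-CAD+ 2NG- (47.0 ± 30.7), and OKMS E-CAD- 2NG- and 3NG- cells (27.7 ± 24.3 and 19.2 ± 19.4). The next gap was the one to MEFs.

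*Utf1* had a gap at 2 places between ESCs and the cells next to MEFs. Above the upper one were TNG MKOS (169.4 ± 43.4 CPM), TNG OKMS (161.3 ± 16.4), E14 (136.4 ± 15.0), and TNG ESCs (132.6 ± 22.8), both iPSCs without doxycycline (146.0 ± 13.5 in MKOS, 122.1 ± 16.9 in OKMS), MKOS and OKMS 3NG+ (106.5 ± 26.8 and 92.5 ± 6.80), MKOS 3NG- (84.8 ± 18.7), and OKMS E-CAD+ 2NG- cells (56.5 ± 9.84). Between the gaps were MKOS 2NG- (40.1 ± 6.0), OKMS E-CAD+ 3NG- (39.8 ± 20.5), and D6 (39.3 ± 8.84). OKMS E-CAD+ 3NG- cells, at 17.4 to 57.7, overlapped with conditions on both sides. Below the lower one were OKMS E-CAD- 2NG- (13.3 ± 8.47), MKOS and OKMS iPSCs in 2i (9.59 ± 0.807 and 7.93 ± 9.72), and OKMS E-CAD- 3NG- cells (2.39 ± 1.61). For this gene the iPSCs in 2i stood between both E-CAD- populations.

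*Trim71* had no gap from TNG ESCs (50.5 ± 10.2 CPM) down to OKMS E-CAD+ 2NG- cells (15.6 ± 3.77). In between lay TNG OKMS ESCs (44.0 ± 7.02), MKOS iPSCs without doxycycline (42.9 ± 15.4), OKMS 3NG+ (42.3 ± 13.8), E14 (38.1 ± 6.94), MKOS 3NG- (36.4 ± 10.7) and 3NG+ (35.4 ± 9.11), TNG MKOS ESCs (34.9 ± 6.79), OKMS iPSCs without doxycycline (34.6 ± 20.4) and in 2i (28.5 ± 12.4), D6 (27.3 ± 5.51), MKOS 2NG- (21.0 ± 6.22), MKOS iPSCs in 2i (19.0 ± 3.32), and OKMS E-CAD+ 3NG- (17.6 ± 13.7). OKMS E-CAD- 3NG- (7.69 ± 1.15) and 2NG- cells (7.23 ± 9.58) followed after a gap. The E-CAD- 2NG- libraries ran from 0 to 18.1, and so overlapped with E-CAD+ 2NG- cells as well as with OKMS MEFs (2.11 ± 0.095).

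*Lin28b* had an order over conditions of its own. Its highest mean was in MKOS E-CAD+ 2NG- cells, at 15.0 ± 2.28 CPM (SD, n = 3), which is 135% of the mean over the 4 ESC lines. It stood at 116% in OKMS E-CAD+ 2NG- and at 96.2% in OKMS E-CAD- 2NG- cells, where *Lin28a* stood at 25.7% and 13.3%. Without replicate 3, *Lin28b* was at 102% and 62.0% and *Lin28a* at 4.78% and 1.60%. The neighbors at the top of this order, TNG OKMS ESCs (14.2 ± 3.58 CPM) and OKMS E-CAD+ 2NG- cells (12.9 ± 2.82 CPM), had overlapping ranges with it. TNG ESCs (12.2 ± 4.72), OKMS E-CAD- 2NG- (10.7 ± 7.26), MKOS 3NG- (10.49 ± 5.04), TNG MKOS ESCs (10.49 ± 8.20), OKMS E-CAD+ 3NG- (10.1 ± 8.85), MKOS iPSCs without doxycycline (8.19 ± 2.79), and OKMS 3NG+ cells (7.75 ± 2.02) followed. E14 (7.41 ± 1.90), MKOS 3NG+ (5.92 ± 4.79), OKMS E-CAD- 3NG- (4.85 ± 0.933), OKMS iPSCs in 2i (3.52 ± 0.753) and without doxycycline (3.47 ± 0.629), and D6 (3.22 ± 0.894) came next, each overlapping its neighbor. MKOS iPSCs in 2i (1.42 ± 1.10) came after a gap to D6 and overlapped with MKOS MEFs (1.06 ± 0.242) and with the lowest MKOS 3NG+ library (0.395). For *Lin28a*, *Sall4*, and *Utf1* the highest mean was in TNG OKMS or TNG MKOS ESCs, and for *Trim71* in TNG ESCs.

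Without replicate 3 the 4 OKMS Nanog-GFP- populations stood lower in the order for *Lin28a* in 3 of 4 cases. From the highest of 20 conditions, E-CAD+ 3NG- moved from rank 8 to 14 (23.6 ± 8.14 CPM, n = 2), E-CAD+ 2NG- from 12 to 15 (6.14 ± 4.58), and E-CAD- 2NG- from 16 to 17 (2.05 ± 1.93), while E-CAD- 3NG- moved from 17 to 16 (3.60 ± 1.82). A gap then separated E-CAD+ 3NG- from E-CAD+ 2NG- cells. *Lin28b* moved from rank 5 to 10 in E-CAD- 2NG- (6.88 ± 4.36 CPM), from 8 to 12 in E-CAD+ 3NG- (5.07 ± 2.80), and from 3 to 4 in E-CAD+ 2NG- cells (11.3 ± 1.31). *Trim71* went to 1.80 ± 2.55 CPM in E-CAD- 2NG- cells, at rank 18 below OKMS MEFs, and to 9.71 ± 1.28 in E-CAD+ 3NG-, with gaps on both sides of it. *Sall4* moved by at most 1 rank, to 8.05 ± 0.532 and 13.8 ± 5.44 CPM in E-CAD- 3NG- and 2NG- and 29.7 ± 8.67 and 31.0 ± 21.3 CPM in E-CAD+ 2NG- and 3NG- cells, and both E-CAD- populations then lay below gaps. *Utf1* also moved by at most 1 rank, to 18.2 ± 1.41 CPM in E-CAD- 2NG-, 3.31 ± 0.247 in E-CAD- 3NG-, 50.9 ± 2.79 in E-CAD+ 2NG-, and 30.8 ± 19.0 in E-CAD+ 3NG- cells.

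Reads of the 2 paralogs were also set against each other. For each read of *Lin28b* there were 2.58 reads of *Lin28a* in MKOS E-CAD+ 2NG- and 3.04 in MKOS 3NG- cells, and 8.83 in MKOS 3NG+ cells. In OKMS the ratio was 1.91 in E-CAD- 2NG-, 2.84 in E-CAD- 3NG-, 3.99 in E-CAD+ 2NG-, 5.08 in E-CAD+ 3NG-, and 11.4 in 3NG+ cells. It was 10.6 to 15.2 in ESCs, so every Nanog-GFP- population lay below every ESC line, with or without the 4 libraries. So did MKOS 3NG+ cells, MKOS iPSCs without doxycycline (8.93), and OKMS iPSCs in 2i (7.0). D6 iPSCs were at 14.1, OKMS iPSCs without doxycycline at 17.5, and MKOS iPSCs in 2i at 18.8. Without replicate 3 the OKMS ratios were 0.408 in E-CAD- 2NG- (20 reads of *Lin28a* and 49 of *Lin28b*), 0.718 in E-CAD- 3NG- (28 and 39), 0.646 in E-CAD+ 2NG- (64 and 99), and 4.39 in E-CAD+ 3NG- cells (404 and 92). *Lin28b* reads then outnumbered those of *Lin28a* in 3 of the 4 populations, and the ratio in OKMS E-CAD+ 2NG- cells was below that in MKOS instead of above it. In MEFs *Lin28b* had 3, 16, and 2 reads in WT, MKOS, and OKMS, and *Lin28a* none.

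**Figure D2:**
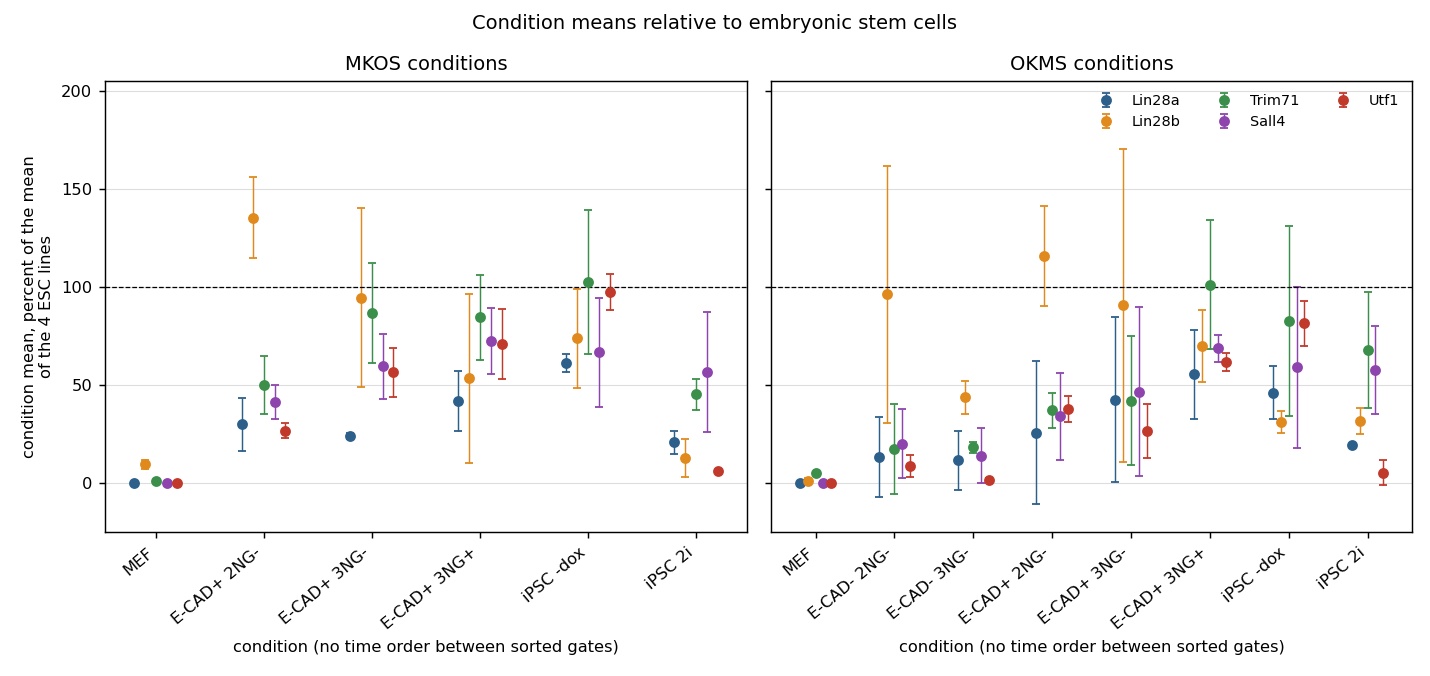
Mean level of each member as a percent of its mean over the 4 ESC lines (dashed line, 100), for MKOS (left) and OKMS conditions (right). Points are condition means of 2 or 3 libraries, replicate 3 included, and bars are 1 SD. *Lin28b* is at 135% in MKOS E-CAD+ 2NG- cells while *Lin28a* is at 30.0%, and *Utf1* falls to 6.40% and 5.29% in the iPSCs in 2i.

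Of the members, *Utf1* had the largest difference between OKMS cells sorted for E-CAD. *Utf1* was at 3.14, 3.49, and 0.544 CPM in E-CAD- 3NG- cells, and at 44.3, 17.4, and 57.7 CPM in E-CAD+ 3NG- cells. Its ranges did not overlap in 3NG-, nor in 2NG-, where E-CAD- libraries ended at 19.2 CPM and E-CAD+ libraries began at 48.9 CPM. From E-CAD- to E-CAD+ cells, averaged over both gates, *Utf1* rose by a log2 fold change of 3.19 ± 0.37 (SE, n = 6 against 6; adjusted p = 1.16e-07). It was called within each gate as well, at 2.24 ± 0.48 in 2NG- (adjusted p = 0.00483) and 4.13 ± 0.57 in 3NG- (adjusted p = 1.30e-05).

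Over both gates 3 of the 5 members were called higher in E-CAD+ cells, where 7.08% of all genes were called and 4.69% were higher. Besides *Utf1* these were *Sall4*, at 1.42 ± 0.41 (adjusted p = 0.0237), and *Trim71*, at 1.26 ± 0.39 (adjusted p = 0.0411). *Lin28a* was at 1.63 ± 0.59 (adjusted p = 0.0891) and *Lin28b* at 0.82 ± 0.49 (adjusted p = 0.338). *Sall4* was at 8.42, 7.67, and 41.7 CPM in E-CAD- 3NG- against 46.0, 15.9, and 130.9 CPM in E-CAD+ 3NG- cells, so its ranges overlapped through replicate 3. *Trim71* was at 6.77, 7.32, and 8.98 CPM against 10.6, 8.81, and 33.4 CPM in the same gates. Leaving out 1 library at a time, *Trim71* kept its call only without E-CAD+ 3NG- replicate 1 or 2, E-CAD+ 2NG- replicate 2, or E-CAD- 2NG- replicate 3, and *Sall4* lost its call without replicate 1 or 2 of either E-CAD- population or replicate 3 of either E-CAD+ population. Both were lowest without E-CAD+ 3NG- replicate 3, at 0.82 for *Trim71* (adjusted p = 0.235) and 0.88 for *Sall4* (adjusted p = 0.197). *Lin28a* was called without E-CAD+ 2NG- replicate 2 (1.88), E-CAD- 3NG- replicate 3 (2.67), or E-CAD- 2NG- replicate 3 (3.04), and was at 0.38 without E-CAD+ 2NG- replicate 3. Without the 4 libraries, 4 members were called, since *Lin28a* reached 2.22 (adjusted p = 5.29e-04), *Trim71* 1.70, *Sall4* 1.56, and *Utf1* 2.42. The number of all genes called for E-CAD was 1107 with all libraries and between 557 and 1593 over the 7 alternatives described below. Cells were sorted on the product of *Cdh1*, and 7 of 8 fibroblast markers fell with it, with a median log2 fold change of -1.65. Their part in the members' difference was not tested.

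Between 2NG- and 3NG- cells no member passed the threshold in either cassette. None of the 5 members was called in MKOS, where edgeR called 0.390% of all genes, 1 member had an unadjusted p under 0.05, and DESeq2 called none. None was called in OKMS either, where 0.0384% of all genes were called and neither an unadjusted p under 0.05 in edgeR nor DESeq2 picked any. The fitted values of *Utf1* had opposite signs. In MKOS it was at 33.7, 41.2, and 45.5 CPM in 2NG- and 64.0, 90.0, and 100.3 CPM in 3NG- cells, without overlap, at a log2 fold change of 0.99 ± 0.44 (adjusted p = 0.637). In OKMS E-CAD+ cells it was at 48.9, 52.9, and 67.6 CPM in 2NG- and 44.3, 17.4, and 57.7 CPM in 3NG- cells, with overlap, at -0.57 ± 0.44 (adjusted p = 1). The difference between these 2 changes was -1.56 ± 0.63, with an unadjusted p of 0.0176 and an adjusted p of 0.842. *Trim71* in MKOS also had ranges without overlap, 14.4 to 26.7 CPM in 2NG- and 27.5 to 48.2 CPM in 3NG- cells, at an adjusted p of 0.879.

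From 3NG- to 3NG+ cells, that is from Nanog-GFP- to Nanog-GFP+, the members' values depended on the 4 libraries in OKMS. *Trim71* was at 58.0, 32.2, and 36.8 CPM in OKMS 3NG+ cells, against 10.6, 8.81, and 33.4 CPM in E-CAD+ 3NG- cells. *Utf1* was at 100.4, 88.1, and 89.1 CPM against 44.3, 17.4, and 57.7 CPM. With all libraries none of the 5 members was called by edgeR, where 6.26% of all genes were called. At an unadjusted p under 0.05 there were 2 members, and DESeq2 called *Utf1* alone. *Trim71* was at a log2 fold change of 1.49 ± 0.54 (adjusted p = 0.0878) and *Utf1* at 1.42 ± 0.45 (adjusted p = 0.0501). Without the 4 libraries, 4 members were called, with *Trim71* at 2.37, *Lin28a* at 1.85, *Sall4* at 1.83, and *Utf1* at 1.81. *Lin28b* was at -0.20 with and at 0.80 without them and was not called in either. The number of all genes called in this comparison moved too, from 979 with all libraries to between 428 and 1481 over the 7 alternatives described below. Leaving out only E-CAD+ 3NG- replicate 3 called *Trim71*, *Sall4*, and *Utf1*.

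In MKOS, 3NG+ cells had *Lin28a* at 60.2, 31.8, and 69.3 CPM and *Sall4* at 112.7, 72.9, and 114.1 CPM, against 31.2, 32.4, and 28.7 CPM and 56.2, 91.1, and 98.6 CPM in 3NG- cells. The ranges of both genes overlapped, and none of the 5 members was called (1.58% of all genes called; none at an unadjusted p under 0.05, none by DESeq2), with log2 fold changes of -0.67 to 0.97. The change in OKMS minus that in MKOS called no member either (0.0256% of all genes called; none at an unadjusted p under 0.05, none by DESeq2). *Lin28b* in MKOS 3NG+ cells was at 8.83, 0.395, and 8.53 CPM, so that a single library made up most of its spread. The sort between these gates used the *Nanog* reporter, and 7 of 10 comparison pluripotency genes, *Nanog* among them, rose in OKMS over the same step, with a median of 1.91 against -0.06 over all genes.

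The comparison of MKOS with OKMS at the same gate turned on *Lin28a*, which belongs with *Trim71* to a list that was drawn from these libraries. Their direction here is not independent evidence. In 2NG- cells none of the 5 members was called with all libraries (edgeR, 5.07% of all genes called; none at an unadjusted p under 0.05, none by DESeq2). The 95% interval of the log2 difference, MKOS minus OKMS, ran from -1.56 to 1.56 for *Lin28a* and from -1.51 to 0.31 for *Utf1*. *Lin28a* was at 37.9, 56.1, and 21.4 CPM in MKOS and at 9.37, 2.90, and 86.9 CPM in OKMS, so the highest and both lowest values came from OKMS. Without the 4 libraries *Lin28a* was called higher in MKOS at 2.49 (adjusted p = 9.46e-04), and without all 7 libraries outside the published averages at 2.73 (adjusted p = 1.93e-04). No other member was called in either case. With 1 library left out at a time, *Lin28a* reached 2.49 as well, but no such edgeR fit called it (lowest adjusted p = 0.134). These fits kept the dispersion trend of the full fit, whereas the trend was estimated anew without the 4 or the 7 libraries.

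In 3NG- cells none of the 5 members was called with all libraries (edgeR, 2.17% of all genes called; 1 at an unadjusted p under 0.05, none by DESeq2). *Utf1* was at 64.0, 90.0, and 100.3 CPM in MKOS, all above the 44.3, 17.4, and 57.7 CPM in OKMS, at a difference of 0.96 ± 0.44 (adjusted p = 0.299). *Trim71* was at 27.5, 33.5, and 48.2 CPM against 10.6, 8.81, and 33.4 CPM, at 0.91 ± 0.53 (adjusted p = 0.425). Without the 4 libraries *Trim71* was called at 1.79 (adjusted p = 0.0319), and *Lin28a* was at 0.28 instead of -0.96. With 1 library left out at a time, *Trim71* reached 1.79 as well, but no such edgeR fit called it (lowest adjusted p = 0.118). In 3NG+ cells differences ran from -0.60 to 0.05 and none was called (0.685% of all genes called; none at an unadjusted p under 0.05, none by DESeq2).

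Over the same 2 gates, 4 of 10 comparison pluripotency genes were called higher in MKOS, among them *Zfp42* (log2 difference 2.60 in 2NG-, 2.24 in 3NG-), *Dppa2* (1.98, 2.42), and *Esrrb* (1.90, 1.99), which are markers of ESCs. Reads with a unique position made up 64.9%, 76.8%, and 98.2% of these genes' reads. In 2NG- cells 4 of 8 fibroblast markers were higher in MKOS too. The fibroblast sum was 359 to 947 CPM over MKOS Nanog-GFP- libraries and 70.0 to 280 CPM over those of OKMS E-CAD+ cells, without overlap. With OKMS E-CAD- cells, which are not in this comparison, the OKMS range reached 858 CPM. The part of fibroblast RNA in the members' values was not tested. For the change from MEFs to Nanog-GFP- E-CAD+ cells, the difference between cassettes could be compared for *Lin28b* and *Trim71*, the 2 members with reads in both MKOS and OKMS MEFs. Neither was called with all libraries (1.43% of all genes called; both at an unadjusted p under 0.05, neither by DESeq2), and the fitted values had opposite signs. OKMS minus MKOS was at 2.91 ± 1.35 for *Lin28b* (adjusted p = 0.327) and -2.84 ± 1.08 for *Trim71* (adjusted p = 0.211). *Trim71* was called without the 4 libraries (-3.33, adjusted p = 0.0314). These values also hold the difference between the MEFs. *Lin28b* was at 0.115 CPM in OKMS and 1.06 CPM in MKOS MEFs, and *Trim71* at 2.11 and 0.367 CPM. In the sorted cells alone, with all libraries, MKOS minus OKMS was at 0.11 in 2NG- and -0.06 in 3NG- for *Lin28b*. For *Trim71* it was at 0.31 and 0.91.

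**Figure D3:**
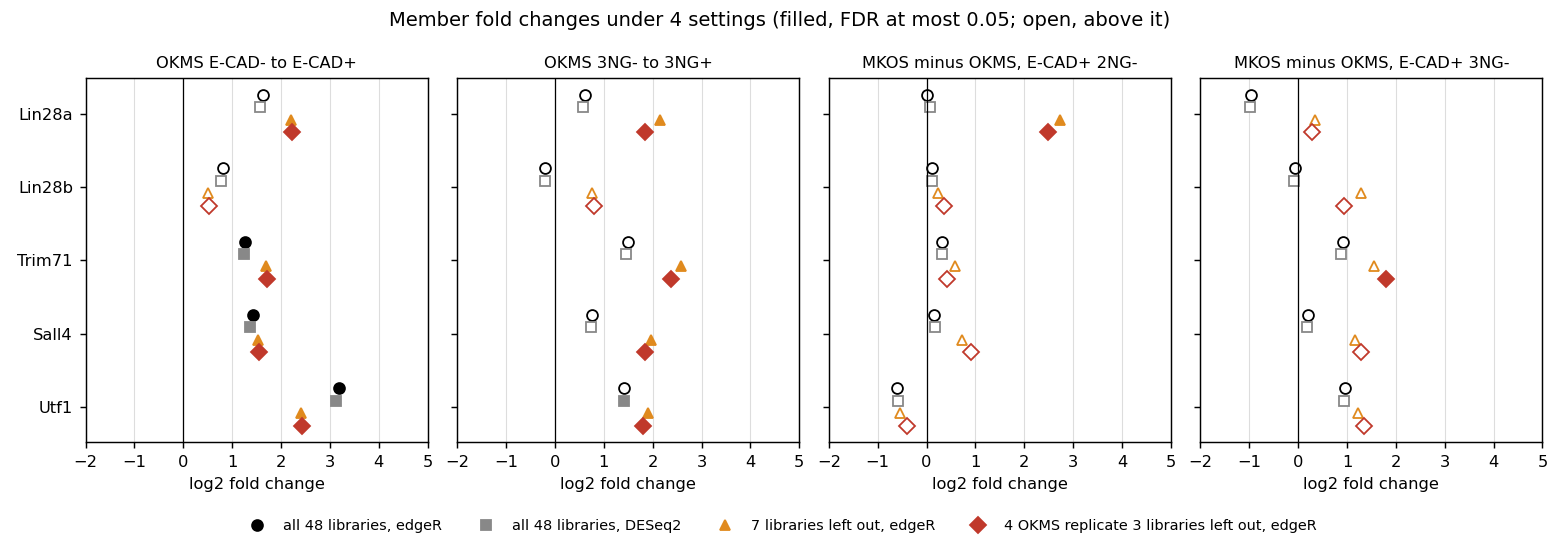
Log2 fold change of each member in 4 comparisons of sorted cells, with all libraries in edgeR (circles) or DESeq2 (squares), without the 7 libraries outside the published averages (triangles), and without replicate 3 of the 4 OKMS Nanog-GFP- populations (diamonds). Filled symbols have an adjusted p of at most 0.05. *Lin28a* in MKOS minus OKMS 2NG- cells moves from -0.00 to 2.49 without the 4 libraries.

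Replicate 3 of the 4 OKMS populations held opposite values of *Lin28a* and *Utf1* in E-CAD- cells. Relative to the mean of replicates 1 and 2, *Lin28a* was 22.9 times as high in E-CAD- 2NG- and 10.4 times in E-CAD- 3NG- cells, while *Utf1* was at 0.197 and 0.164 times. In E-CAD+ cells *Lin28a* was 14.2 and 4.94 times and *Utf1* 1.33 and 1.87 times as high. *Sall4* was 2.76 to 5.18 times as high in all 4, and *Lin28b* 1.10 to 3.95 times. The sum of 6 pluripotency markers in replicate 3 was outside the other libraries in each population, in opposite directions by E-CAD. It was higher in E-CAD+ cells, at 3223 CPM in 2NG- against 795 and 1020 CPM and at 5513 CPM in 3NG- against 1634 and 2336 CPM. In E-CAD- cells it was lower, at 186 CPM in 2NG- against 247 and 312 CPM and at 194 CPM in 3NG- against 256 and 278 CPM, as *Utf1* was. The sum did not stand for each of its 6 genes. Over all 4 populations, the lowest value in replicate 3 against that in replicates 1 and 2 was 59.6 against 110 CPM for *Dppa5a*. It was 46.1 against 55.8 CPM for *Pou5f1* and 0 against 0.190 CPM for *Esrrb*. It was higher for *Tdgf1* (37.0 against 19.9 CPM), *Nanog* (8.98 against 7.59 CPM), and *Zfp42* (6.36 against 4.81 CPM). The part of this sum in the members' values was not tested.

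In established lines *Utf1* was lower in 2i than without doxycycline. Whether libraries in 2i and without doxycycline came from the same lines is not stated, so medium and line cannot be told apart. MKOS and OKMS iPSCs without doxycycline had *Utf1* at 155.5, 136.4, 134.0, and 110.1 CPM, and the same kinds of iPSCs in 2i, which holds inhibitors of MEK and GSK3, had 10.2, 9.02, 14.8, and 1.05 CPM. The ranges did not overlap, and *Utf1* fell at a log2 fold change of -4.04 ± 0.44 (adjusted p = 9.11e-08), with -3.99 in MKOS and -4.10 in OKMS lines. It was the only member called by edgeR and by DESeq2, where 4.34% of all genes were called and 2.45% were lower.

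*Lin28a* was at 46.8 to 83.0 CPM in the 4 libraries without doxycycline and at 21.4 to 32.1 CPM in 2i, again without overlap, at -1.50 ± 0.71 (adjusted p = 0.259). In the fits without the 4 OKMS libraries *Lin28a* was called at -1.50 (adjusted p = 0.00278), with the same iPSC libraries and a smaller estimated spread. *Lin28b* was at -1.34 ± 0.64 (adjusted p = 0.262), lowest in MKOS iPSCs in 2i at 0.649 and 2.20 CPM. *Sall4* was at -0.21 ± 0.47 with a 95% interval of -1.18 to 0.76. Of the comparison pluripotency genes, *Dppa2* (-1.62), *Dppa4* (-1.59), and *Tdgf1* (-1.35) were also lower in 2i, and the fibroblast sum was 14.7 to 29.0 CPM in 2i against 6.74 to 29.3 CPM without doxycycline. A unique position was held by 76.8% of the reads of *Dppa2*, 12.9% of *Dppa4*, and 90.1% of *Tdgf1*, so *Dppa4* is the least certain.

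D6 iPSCs had *Utf1* at 33.0 and 45.5 CPM, below the 4 iPSC libraries without doxycycline, at -1.70 ± 0.50 (adjusted p = 0.0873). No member was called by edgeR (1.25% of all genes called; 1 at an unadjusted p under 0.05), and DESeq2 called *Utf1*. *Utf1* was called with edgeR when the 4 OKMS libraries were left out (adjusted p = 0.0141). *Sall4* in D6, at 90.9 and 83.9 CPM, lay within the range of those iPSCs, 41.2 to 121.3 CPM.

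Between 3NG+ cells and iPSCs without doxycycline, no member was called in MKOS (2.14% of all genes called) or OKMS (0.614%). Nor was any called between these iPSCs and TNG MKOS and TNG OKMS ESCs (1.40%) or between TNG and E14 ESCs (0.0448%). In all 4 of these, edgeR gave no member an unadjusted p under 0.05 and DESeq2 called none. *Lin28a* ranges did not overlap between the iPSCs (46.8 to 83.0 CPM) and the ESCs with the same cassettes (100.3 to 217.8 CPM). Differences between TNG and E14 ESCs ran from -0.80 to -0.03.

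**Figure D4:**
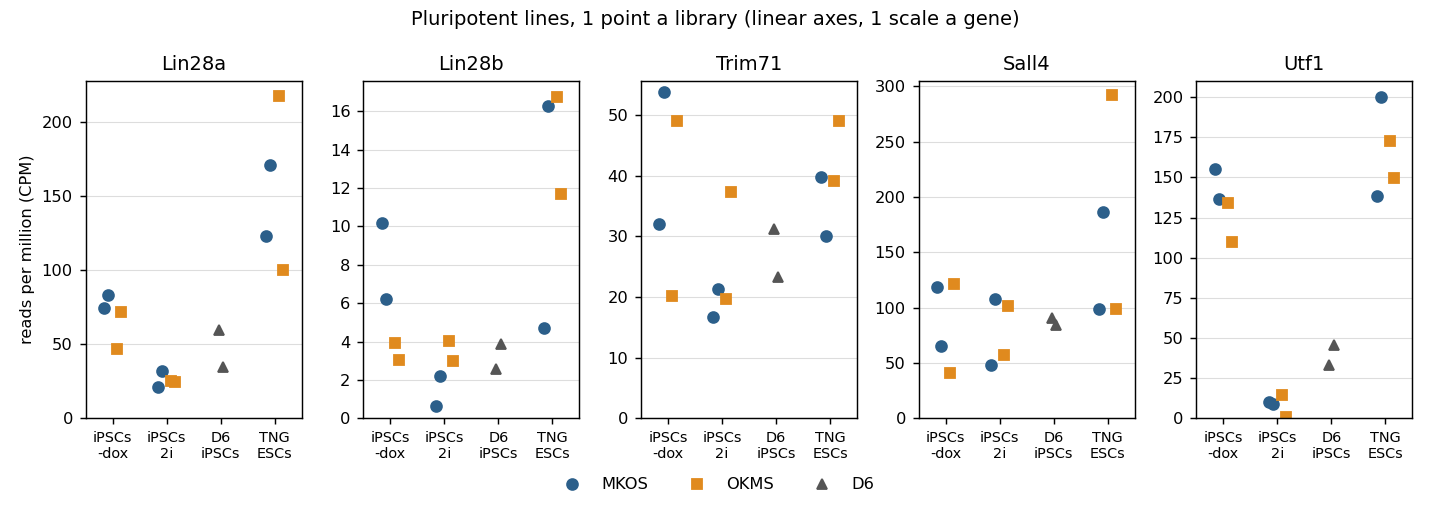
Level of each member in CPM by library in iPSCs without doxycycline, iPSCs in 2i, D6 iPSCs, and ESCs with the cassettes, on linear axes with a scale for each gene. Circles are MKOS, squares OKMS, and triangles D6. *Utf1* is at 110.1 to 155.5 CPM without doxycycline and at 1.05 to 14.8 CPM in 2i.

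The genes that act with LIN28, let-7, TRIM71, and SALL4 were described next. Of 9 genes that process, tail, or decay let-7, 7 rose from MEFs to ESCs and 1 fell, with a median of 0.73 against 0.00 over all genes, of which 29.6% rose and 30.4% fell. *Drosha*, which cuts primary microRNAs, rose by 1.22, and *Xpo5*, which exports precursors, by 1.05. *Zcchc6* (TUT7), a uridylyltransferase of let-7, fell by 1.25, while its relative *Zcchc11* (TUT4), named here after its value was seen, rose by 0.73. None of the 9 was called in MKOS 2NG- cells against MEFs, with 5 at an unadjusted p under 0.05. In OKMS *Dicer1* rose by 1.36 from 3NG- to 3NG+.

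Of 16 let-7 targets, 5 rose and 3 fell from MEFs to ESCs, with a median of 0.11. That is 50.0% called against 60.1% of all genes, and 31.2% higher against 29.6%, so the share that rose was near that of all genes. The 2 largest falls were *Hmga2* (-6.47), a chromatin protein, and *Ccnd2* (-5.29), cyclin D2, and the 2 largest rises *Mycn* (5.62) and *Arid3b* (4.40). In MKOS 2NG- cells against MEFs 3 rose and 2 fell (31.2% called against 27.0% of all genes), *Arid3b* (3.74) and *Hmga2* (-1.58) among them. Of the 16, *Hmga2* alone was called in 2i, higher by 1.74 (adjusted p = 3.94e-04). In OKMS, *Ccnd2* was lower by -3.90 in 3NG+ than in 3NG- cells.

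Of 8 mRNAs repressed by TRIM71 or of its TRIM-NHL family, 6 fell and 1 rose from MEFs to ESCs (87.5% called against 60.1% of all genes), with a median of -1.73. *Egr1*, an immediate-early factor, was at -5.60, *Cdkn1a*, the cell cycle inhibitor p21, at -4.01, and *Mbnl1*, a splicing factor, at -3.92. *Trim2*, a family member, rose by 2.06. The family members *Trim3* (-1.66) and *Trim32* (-1.63), named here after their values were seen, were among the 6 that fell. In MKOS 2NG- cells against MEFs 1 of the 8 rose and 1 fell (25.0% called against 27.0% of all genes). In OKMS 1 rose and 3 fell in E-CAD- as in E-CAD+ 2NG- cells (50.0% called against 21.8% and 29.2% of all genes). *Cdkn1a* was also lower in OKMS 3NG+ than in 3NG- cells (-1.74), and higher in 2i (2.25), where *Trim2* was lower (-2.04).

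Of 14 SALL proteins and NuRD subunits, 9 rose and none fell from MEFs to ESCs, with a median of 0.62. The share called, 64.3%, was near the 60.1% of all genes, of which 29.6% rose. *Sall3* (8.84) and *Sall1* (7.06), relatives of *Sall4*, rose most, and the subunits *Mta3* (1.88) and *Gatad2a* (1.35) rose less. *Hdac1*, among the 9 that rose and named here for its reads, had a unique position for only 2.96% of them. *Sall1* rose from MEFs to MKOS 2NG- cells too (5.35), while *Sall2* fell (-2.96). From OKMS E-CAD- to E-CAD+ cells only *Sall1* (1.54) and *Mta3* (0.89) of the 14 were called. All 10 comparison pluripotency genes rose from MEFs to ESCs, with a median of 10.8, near the members' median of 10.9. From E-CAD- to E-CAD+ cells 8 of the 10 rose, with a median of 2.60 against the members' 1.42. Reads of *Pou5f1* and *Sox2* can come from the cassettes in cells given doxycycline.

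Condition means were also compared between genes, as log2(CPM + 1) over the 20 conditions. *Lin28a*, *Trim71*, *Sall4*, and *Utf1* followed each other, with Pearson's r of 0.891 to 0.967, and *Lin28b* followed them less closely, at 0.672 to 0.778. Over the 17 conditions without MEFs, *Lin28b* was at 0.0728 to 0.444 with the others, which remained at 0.733 to 0.910 with each other. Without the 4 libraries these ranges were 0.854 to 0.952 and 0.671 to 0.817 over 20 conditions, and 0.625 to 0.927 and 0.175 to 0.534 over 17, the second of each with *Lin28b*. These values share libraries and the low level of MEFs, and they are descriptions. The gene most like *Sall4* among 10681 was *Pou5f1* (0.992), followed by *Tdgf1* (0.982) and *Tdh* (0.982). *Lin28a* was most like *Sall4* (0.967), then *Fam169a* (0.966) and *Atm* (0.966). *Trim71* was most like *Hspbap1* (0.978) and *Mybl2* (0.966), *Utf1* most like *Grb7* (0.955) and *Otx2* (0.944), and *Lin28b* most like *Prodh* (0.918) and *Lsr* (0.914).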

How the data were processed

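Libraries (48, of 20 conditions) were made with the STRT protocol from sorted or cultured cells. The authors deposited raw read counts per transcript without normalization. Per the submitters' processing notes, Bowtie 0.12.7 and build mm10 were named, whereas the methods name mm9. Positions in the table fell inside the gene for 99.1% of 20698 symbols shared with GRCm38 and 8.70% of 21500 shared with the older build. Reads with several positions are counted once, at the most 5′ exonic position, so genes with copies are less certain, and PCR copies were not removed. Repeat (1554) and spike-in (104) entries were left out.

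CPM was computed over the 24264 transcripts. edgeR 4.0.16 in R 4.3.3 was used with TMM factors, its default low-count filter by condition (15630 genes), trended dispersion (common 0.217), and a quasi-likelihood fit with 1 coefficient per condition to all 48 libraries. Genes with a Benjamini-Hochberg adjusted p of at most 0.05 were called. Intervals for log2 fold changes use Student's distribution on 28 residual degrees of freedom, and those of ratios against MEFs are exact 95% counting intervals. The floor for a group without reads was 3 counts over the group. The alternatives were DESeq2 1.42.0, its size factors in edgeR, no filter, a replicate block, fits to the compared conditions, each library left out, and 7 libraries outside the published averages left out. Leaving out the 4 OKMS libraries numbered 3 was chosen after seeing the data. The 7 were found by matching averages of 39 genes. On simulated counts for MKOS against OKMS 2NG-, 165 of 200 genes changed 4-fold were called, and 9 unchanged ones. Tables and figures were made with Python 3.11.15, pandas 2.3.3, and Matplotlib 3.10.9. Genes most like a member were the 5 with the highest Pearson's r over condition means, and genes named from a list are up to 4 called ones with the largest changes. The members and lists were chosen with earlier results of these data known.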

Additional observations from a re-analysis of the deposited data

How the results depend on the processing

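The fitted difference from MEFs was above 0 for all members in every fit, but that of *Trim71* in OKMS E-CAD- 2NG- cells was 0.025 to 0.0345 (adjusted p = 1) in fits without its replicate 3. The calls of *Utf1* between E-CAD- and E-CAD+ cells and between iPSCs without doxycycline and in 2i held under all alternatives. Changes of sign were counted for only a part of the members and comparisons. Left out were, among others, MKOS 3NG- to 3NG+, MKOS against OKMS 3NG+, 3NG+ to iPSCs, iPSCs to ESCs, and TNG to E14 ESCs. Between 2NG- and 3NG- cells and in D6 only *Utf1* was included. Of the 343 fold changes counted under 7 alternatives, 15 changed sign, and 0 of these were called with all libraries. The cause was not tested. Numbers of members called moved as follows. Without the filter on low counts, 1 was called in MKOS 2NG- to 3NG-, in MKOS 3NG- to 3NG+, in iPSCs to ESCs, in D6, and in the change from MEFs between cassettes, and 2 in MKOS against OKMS 3NG-, OKMS 3NG- to 3NG+, and 2i. OKMS 3NG- to 3NG+ had 1 with DESeq2 or its size factors, and 4 without the 7 libraries or without the 4 libraries. Leaving out the 7 gave 1 in MKOS against OKMS 2NG-, in the change from MEFs, and in D6, and 2 in 2i. Leaving out the 4 gave these same counts, and 1 in MKOS against OKMS 3NG-. From OKMS MEFs to E-CAD- 2NG-, 5 in place of 4 were called with DESeq2 or without the filter. For E-CAD, in place of 3, 4 were called without the filter, the 7, or the 4, and in the replicate block, and 2 with DESeq2's size factors. The fit to the compared conditions gave 1 for E-CAD, 1 in D6, and 2 in 2i, and DESeq2 1 in D6. In that fit *Trim71* and *Sall4* lost their E-CAD calls (adjusted p = 0.236 and 0.156), as *Trim71* did with DESeq2's size factors (adjusted p = 0.0509). Leaving out 1 library at a time, 0 to 3 members were called in OKMS 3NG- to 3NG+, 1 to 4 for E-CAD, and 3 to 5 from OKMS MEFs to E-CAD- 2NG-.

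*Lin28a* in MKOS against OKMS 2NG-, at -0.00, was 0.028 with DESeq2's size factors, 0.075 with DESeq2, 2.73 without the 7, and 2.49 without the 4. In 3NG- cells *Lin28a* was 0.34 without the 7 and 0.28 without the 4, and *Lin28b* 1.28 and 0.94. *Lin28b* in OKMS 3NG- to 3NG+ was 0.76 and 0.80, and the cassette difference of *Lin28a* over that step 1.22 and 0.88. With 1 library left out, 2NG- values ranged from -0.51 to 2.49 for *Lin28a*, -0.022 to 0.36 for *Lin28b*, and -0.18 to 0.92 for *Sall4*. The 3NG- values ranged from -1.38 to 0.28, -0.48 to 0.94, and -0.25 to 1.29. *Lin28b* in OKMS 3NG- to 3NG+ ranged from -0.62 to 0.80, the cassette difference of *Lin28a* from -0.78 to 0.88, and *Sall4* in 2i from -0.59 to 0.25.

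No label says that a replicate number marks a shared experiment, and not every pair of same-numbered libraries deviated together, so the libraries were not treated as paired. Whether equal numbers mark 1 experiment is not known. Deviations of same-numbered libraries correlated at a mean of 0.081 over 84 pairs, from -0.0414 to 0.352, with 23 above 0.1, and at 0.241 among the 6 pairs of those 4. The fit that took the number as a replicate block called 2 members in OKMS 3NG- to 3NG+, *Trim71* (1.66) and *Utf1* (1.44), and also *Lin28a* for E-CAD (1.70, adjusted p = 0.0136). Among the fold changes counted above, the values that changed sign in this fit were *Lin28a* in MKOS against OKMS 2NG- (1.25), *Lin28b* in 3NG- (0.23), and the cassette difference of *Lin28a* (0.29).

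Counts of genes called over all genes moved by over 1.5 times in 56 of 140 cases. The largest ranges beside the value with all libraries were 61 to 237 beside 61 (MKOS 2NG- to 3NG-), 0 to 149 beside 6 (OKMS 2NG- to 3NG-), 557 to 1593 beside 1107 (E-CAD), 593 to 1260 beside 793, 275 to 864 beside 339, and 96 to 484 beside 107 (MKOS against OKMS 2NG-, 3NG-, and 3NG+), 234 to 611 beside 224 (from MEFs), 253 to 887 beside 247 (MKOS 3NG- to 3NG+), 428 to 1481 beside 979 (OKMS 3NG- to 3NG+), 4 to 163 beside 4 (its difference), 283 to 799 beside 335 and 58 to 384 beside 96 (3NG+ to iPSCs), 357 to 1025 beside 679 (2i), 166 to 564 beside 219 (ESCs), 75 to 510 beside 196 (D6), and 6 to 263 beside 7 (E14). With TMM-scaled levels, 5 of 100 condition means of members moved by over 1 SD. With a pseudocount of 0.1, 3 of the 5 genes most like each member stayed among them, and 1 for *Trim71*. Groups of 2 or 3 libraries limit every comparison, and 3 reads correspond to 0.212 to 2.10 CPM.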
